A study of Mus musculus with 6 samples.

Results

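The proteasome is the barrel-shaped protease that degrades ubiquitin-tagged proteins, and the genes described here are those of the count table whose symbol starts with Psm, followed by a letter from a to g and a digit. Of 26608 gene symbols, 49 matched, and 48 of them held at least 10 counts summed over the 6 mice. The symbol left out was Psmb11, a catalytic subunit of the thymus, with at most 2 counts in any library. All 48 passed the filter on low counts and were tested. One of the 48 is no subunit: Psmc3ip encodes a partner of the meiotic recombinases and is named for its binding to the subunit encoded by Psmc3. Psma8, a subunit of the testis, is also included. The selection used symbols and a total over all mice only, so it did not use the difference between genotypes.

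Liver RNA was sequenced from 3 LiK mice and 3 LiKM mice, each 6 weeks old and each with its own animal code. The labels do not explain the genotype names. By what is known of the published study, which the labels do not state, both genotypes share an engineered allele that is not reported here, and the hepatocytes of LiKM mice also lack Mdm2, the ubiquitin ligase that keeps p53 low. The promoter driving recombination is not given in the sources used here. Gene-level counts do not show a deletion of part of a gene, so they do not check the genotype labels. Mdm2 rose from 28.7, 29.0 and 28.6 CPM in LiK to 122, 125 and 60.5 CPM in LiKM (log2 fold change 1.83, adjusted p = 0.0196, edgeR quasi-likelihood test). That adjusted p was 0.084 without LiK 1, 0.0778 without LiK 2, 0.052 without LiK 3 and 0.0708 without LiKM 2. The libraries held between 19909993 and 24874343 counts. CPM is the count of a gene scaled to the size of its library, with TMM scaling. Fold changes are LiKM over LiK, and a gene was called at an adjusted p under 0.05 over all 13537 genes tested.

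The proteasome has a 20S core of stacked rings, 2 rings of alpha subunits (Psma genes) that gate the chamber and 2 rings of beta subunits (Psmb genes), 3 of which cut peptide bonds. A 19S cap binds ubiquitin chains, removes them and unfolds the substrate with a ring of ATPases (Psmc genes) and further subunits (Psmd genes). Interferon gamma is known to induce an alternative set of catalytic subunits, encoded by Psmb8, Psmb9 and Psmb10, which take the places of those encoded by Psmb5, Psmb6 and Psmb7 in the immunoproteasome. It also induces the PA28 activator, a ring of the products of Psme1 and Psme2. These change the peptides that are handed to MHC class I molecules. Leukocytes hold much of the immunoproteasome found in tissues, and hepatocytes carry mainly the standard core.

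Short stretches at the start sites of some of these genes are shown because the interferon-inducible and the standard catalytic genes are known for different control. They were taken from RefSeq promoter windows (GRCm38.p6), from 250 bases before to 50 bases after each gene's start, which were found for 40 of the 48 genes. Each is written 5′ to 3′ on the strand named, with the match in capitals. The Psmb8 stretch is chr17:34198088-34198117 (+), with a match to TTCNNNGAA, the core of a gamma-activated site, starting at -97 from the start site. The Psme1 stretch is chr14:55578493-55578522 (+), with a match to GAAA and GAAA set 2 bases apart, the core of an interferon-stimulated response element, read on the other strand and starting at 10. The Psmb5 stretch is chr14:54618023-54618052 (-) and the Psmb6 stretch is chr11:70525338-70525367 (+), each with TGACNNNGC, the core of an antioxidant response element, starting at -47 and -9.
Psmb8: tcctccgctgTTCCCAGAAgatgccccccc
Psme1: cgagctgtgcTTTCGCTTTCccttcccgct
Psmb5: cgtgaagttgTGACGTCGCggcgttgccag
Psmb6: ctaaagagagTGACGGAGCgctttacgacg
Psmb9 and Tap1, which encodes 1 subunit of the peptide transporter into the endoplasmic reticulum, are transcribed away from each other. The 225 bases between their RefSeq starts, chr17:34187331-34187555 (+), are shown with the CCAAT box in capitals.
Psmb9-Tap1: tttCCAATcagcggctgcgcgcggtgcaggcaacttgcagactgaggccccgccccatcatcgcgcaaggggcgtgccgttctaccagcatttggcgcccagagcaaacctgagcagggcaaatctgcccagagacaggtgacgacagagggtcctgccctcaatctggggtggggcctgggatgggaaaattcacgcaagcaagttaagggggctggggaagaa

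Both strands of all windows were searched. The pair of GAAA letters was found for 5 of the 40 genes with a window (12.5%) and in 3.44% of all 32851 windows, and the 5 were Psmb3, Psmd4, Psmd9, Psme1 and Psmg4. TTCNNNGAA was found for 3 genes, Psmb8, Psmd2 and Psmg1 (7.5%, against 8.3% of all windows). TGACNNNGC was found for 6 genes, Psmb5, Psmb6, Psmc6, Psmd12, Psmd9 and Psme4 (15%, against 12.4%). CCAAT was found for 14 genes, Psmb9 among them (35%, against 37.4%). Matches of different motifs did not overlap in the 43 windows of these genes. The windows of Psmb10 and Psme2 held none of these letters. A match describes the sequence and is no evidence of binding in these livers.

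Between LiK and LiKM livers, 0 of the 48 genes were called higher and 0 were called lower by the edgeR quasi-likelihood test. Among all genes tested, 5.11% were called higher and 0.813% lower, 5.92% in either direction. The Wald test of DESeq2 called 0 of the 48, limma-voom called 1, and 1 had an unadjusted edgeR p under 0.05, against 22.4% of all genes. Both the limma-voom call and the unadjusted p belonged to Psmb9. In 1 of the 48 genes, again Psmb9, all 3 LiKM mice stood above all 3 LiK mice, against 17.8% of all genes. In 4 of the 48, Psmb7, Psmb1, Psmd6 and Psme4, all 3 stood below, against 11.8% of all genes. The log2 fold change was positive in 14 and negative in 34 genes, with a median of -0.05 beside 0.00 over all genes. In bulk tissue, fewer cells of a type and less RNA per cell cannot be told apart.

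**Figure D1:**
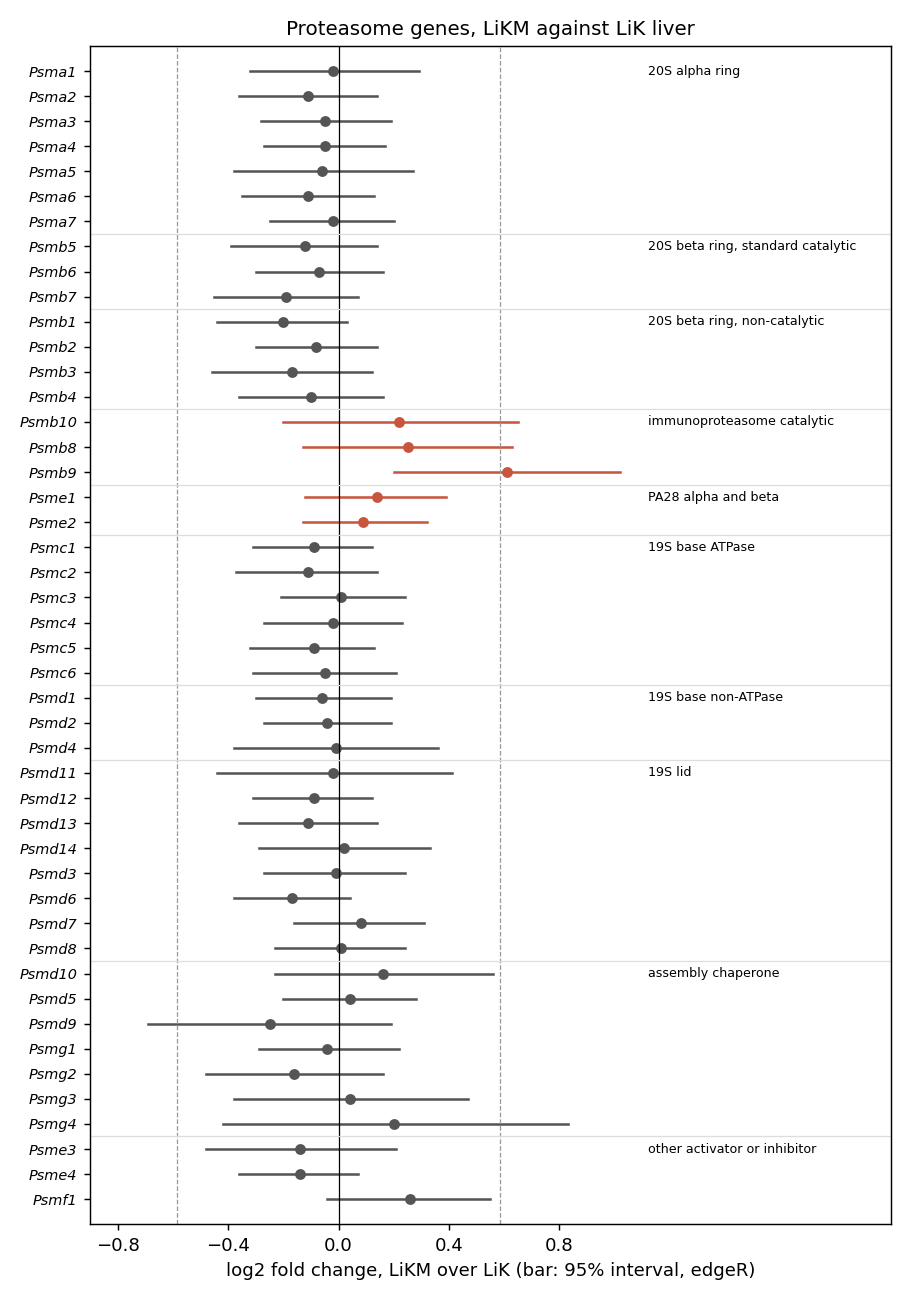
Log2 fold change of LiKM over LiK (x axis) for the Psm genes, grouped by role, with Psmc3ip and Psma8 left out. Bars give each gene's 95% interval from the edgeR quasi-likelihood fit, and dashed lines mark 1.5-fold in each direction. The 5 interferon-inducible genes lie to the right of zero and Psmb9 has the highest value, 0.61, while most other subunits lie close to zero.

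The 5 interferon-inducible genes all had positive fold changes, with a median log2 fold change of 0.22. Of the 43 others, 9 were positive and 34 negative, with a median of -0.06. None of the 5 was called by edgeR, and their sign was positive under every scaling tried. The sign of the others depended on scaling: with library totals in place of TMM, which moved the median of all genes to 0.16, 35 of the 43 were positive and their median was 0.10. That is below the shifted median of all genes, while the median of the 5 was 0.39 on that scale.

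Psmb9, encoding the immunoproteasome subunit that takes the place of Psmb6, had 22.8, 18.8 and 22.2 CPM in the LiK mice and 34.1, 38.4 and 25.0 CPM in the LiKM mice. The genotypes did not overlap, though LiKM 3 was close to LiK 1. The fold change was 1.53 (log2 0.61, SE 0.17, 95% interval 0.20 to 1.02, adjusted p = 0.091, edgeR quasi-likelihood test). This gene was thus not called, and its adjusted p lay on both sides of the threshold among the alternatives, from 0.0277 with limma-voom to 0.274 without LiKM 2, leaving aside a test against a 1.5-fold change. It was 0.0315 without LiKM 3. With library totals it was 0.0482, and with the Wald test of DESeq2 it was 0.05003.

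Psmb8, whose product takes the place of Psmb5, had 51.2, 55.8 and 41.8 CPM in LiK and 57.9, 69.5 and 49.9 CPM in LiKM. Its groups overlapped, with LiKM 2 highest and LiK 3 lowest. The log2 fold change was 0.25 (SE 0.16, 95% interval -0.13 to 0.63, adjusted p = 0.409, edgeR). Psmb10, whose product takes the place of Psmb7, had 32.1, 29.7 and 35.6 CPM in LiK and 38.8, 46.4 and 28.6 CPM in LiKM. LiKM 3 had the lowest level of the 6 mice, so these groups overlapped too. The log2 fold change was 0.22 (SE 0.18, 95% interval -0.20 to 0.65, adjusted p = 0.515, edgeR).

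Psme1, encoding PA28 alpha, had 74.7, 89.4 and 78.3 CPM in LiK and 82.8, 93.7 and 89.9 CPM in LiKM (log2 fold change 0.14, 95% interval -0.12 to 0.39, adjusted p = 0.51, edgeR). Psme2, encoding PA28 beta, had 59.9, 60.6 and 59.1 CPM in LiK and 59.8, 68.5 and 63.3 CPM in LiKM (log2 fold change 0.09, 95% interval -0.13 to 0.32, adjusted p = 0.611, edgeR). Both pairs of groups overlapped. The intervals of these PA28 genes lie inside 1.5-fold in each direction, which is not so for any of the 3 immunoproteasome catalytic genes. LiKM 2 had the highest level of the 6 mice in 5 of the 5 genes, where 17.1% of all genes had their highest level in that mouse.

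**Figure D2:**
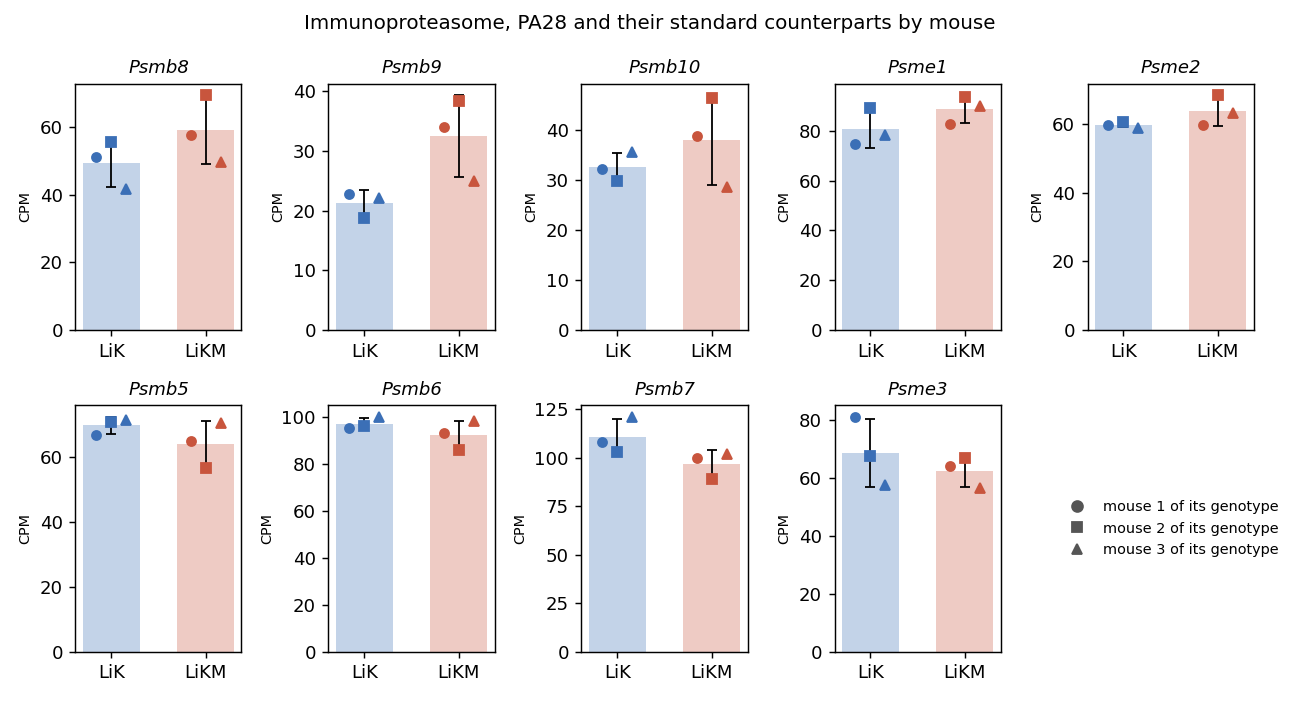
CPM in each mouse (points, with the genotype mean as a bar) for the interferon-inducible genes and their standard counterparts, 3 LiK and 3 LiKM mice. Only Psmb9 (LiKM above) and Psmb7 (LiKM below) show no overlap between the genotypes, and neither was called by edgeR.

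The standard counterparts had small negative values. Psmb5, the chymotrypsin-like subunit, had 66.7, 70.8 and 71.4 CPM in LiK and 64.7, 56.5 and 70.5 CPM in LiKM (log2 fold change -0.12). Psmb6, the caspase-like subunit, had 95.3, 96.0 and 100 CPM in LiK and 93.1, 86.1 and 98.2 CPM in LiKM (-0.07). Psmb7, the trypsin-like subunit, had 108, 103 and 121 CPM in LiK and 100, 88.9 and 102 CPM in LiKM (-0.19, adjusted p = 0.364, edgeR). The first pair of these genes overlapped between genotypes and Psmb7 did not. Psme3, which encodes the nuclear PA28 gamma, had 80.9, 67.6 and 57.4 CPM in LiK and 64.1, 66.7 and 56.3 CPM in LiKM (-0.14). With library totals the values of Psmb5, Psmb6 and Psme3 turned to 0.03, 0.09 and 0.03.

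A ratio of counts within a library does not depend on the scaling. The ratio of Psmb9 to Psmb6 counts was 0.239, 0.196 and 0.222 in LiK and 0.366, 0.446 and 0.255 in LiKM, a 1.59-fold difference. Its groups did not overlap, and the exact two-sided permutation p was 0.1, the smallest that 3 against 3 mice allow (0.375 after Benjamini-Hochberg adjustment over 5 ratios). The ratio of Psmb8 to Psmb5 counts was 0.767, 0.789 and 0.585 in LiK and 0.895, 1.23 and 0.707 in LiKM (1.30-fold, exact permutation p = 0.3, adjusted 0.375). The ratio of Psmb10 to Psmb7 counts was 0.297, 0.288 and 0.295 in LiK and 0.387, 0.522 and 0.281 in LiKM (1.31-fold, exact permutation p = 0.4, adjusted 0.4). In the latter ratio the LiK mice lay close together and LiKM 3 fell below all 3 of them. The ratios of Psme1 and Psme2 to Psme3 differed 1.20-fold and 1.16-fold, each with an exact permutation p of 0.3 (adjusted 0.375) and overlapping groups. No ratio could have passed a threshold of 0.05 in this exact permutation test of 3 against 3 mice.

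**Figure D3:**
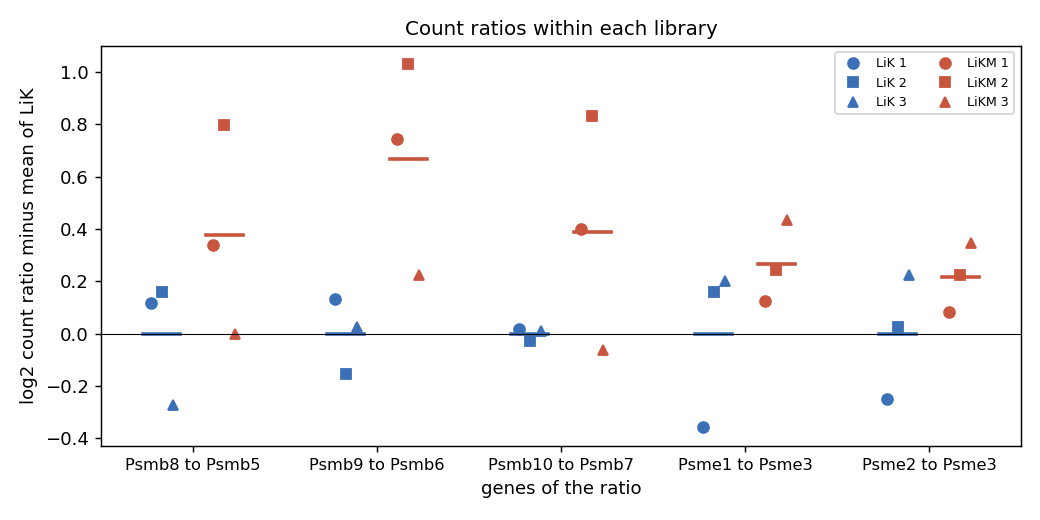
Log2 ratio of raw counts of each interferon-inducible gene to its standard counterpart in each mouse, minus the mean of the LiK mice, 3 LiK and 3 LiKM mice. The ratio of Psmb9 to Psmb6 is the one without overlap (as plain ratios, 0.196 to 0.239 in LiK and 0.255 to 0.446 in LiKM). LiKM 2 has the highest of all 6 values in the 3 ratios of catalytic subunits.

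On a scale comparable between genes, CPM per kilobase of annotated exon, the 3 immunoproteasome catalytic genes had LiK means of 15.7 to 30.5 and LiKM means of 24.0 to 36.3. The 3 standard catalytic genes had 77.5 to 122 in LiK and 71.1 to 116 in LiKM. In both genotypes, every standard catalytic mean stood above every immunoproteasome one. Psme1 and Psme2 were at 61.4 to 72.7 in LiK and 65.4 to 79.8 in LiKM. The 7 alpha subunits ranged from 22.2 to 91.5, the 6 ATPases from 21.1 to 55.3, the 8 lid subunits from 24.6 to 49.3 and the 7 assembly chaperones from 5.78 to 16.1, all LiK means. Exon lengths are of the whole annotated gene, so a gene expressed from a shorter transcript is placed too low.

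Apart from Psmc3ip and Psma8, 41 genes remain beside the 5. Their values on the log2 scale ran from -0.25 to 0.26, and 39 of the 41 (95.1%) had a 95% interval inside 1.5-fold in each direction. This was so for 39.4% of all genes and for 53.5% of the 9885 genes at or above the lowest average level of these 41, whose own median was -0.05. The median coefficient of variation over the 6 mice was 7.25% for the 41, 17.1% for the 5, 18.7% for all genes and 14.6% for the 9885 genes at or above that level. The 9885 genes start at the level of the scarcest of the 41, and most of the 41 stood well above it, so levels were not matched. These shares are descriptions and are not tested against other genes.

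In the alpha ring the log2 fold changes of all 7 genes lay between -0.11 and -0.02. Psma1 was at 66.5, 69.4 and 83.4 CPM in LiK and 69.4, 66.7 and 80.9 CPM in LiKM, with the value nearest zero. Psma6 was at 74.9, 76.4 and 78.1 CPM and then 77.9, 64.8 and 69.9 CPM, with the lowest. Both overlapped between genotypes. Among the beta subunits without an active site, Psmb2 (53.6, 56.9 and 57.7 CPM in LiK, 55.4, 50.6 and 52.8 CPM in LiKM) had -0.08. Psmb1 (118, 113 and 122 CPM in LiK, 110, 94.3 and 102 CPM in LiKM) had -0.20 with an interval of -0.44 to 0.03 and no overlap.

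In the 19S base, the 6 ATPase genes, whose ring threads substrates into the core, lay between -0.11 and 0.01. Psmc3 had 103, 96.9 and 109 CPM in LiK and 107, 106 and 98.8 CPM in LiKM (0.01), and Psmc2 had 54.9, 65.4 and 62.1 CPM and then 54.9, 53.0 and 60.6 CPM (-0.11). Each of them overlapped between genotypes. Psmd1, a scaffold of the base, had 106, 113 and 127 CPM in LiK and 109, 112 and 112 CPM in LiKM (-0.06). Psmd4, a ubiquitin receptor, had 81.4, 75.1 and 83.1 CPM in LiK and 72.6, 66.5 and 98.7 CPM in LiKM (-0.01). LiKM 3 was the highest and LiKM 2 the lowest mouse for Psmd4, so the LiKM mice enclosed the LiK mice. The same pattern was seen for Psmd11, a lid subunit chosen after its values were seen, at 72.8, 72.2 and 73.6 CPM in LiK and 61.5, 60.1 and 94.2 CPM in LiKM (-0.02).

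The 8 lid genes, which include the deubiquitinase gene Psmd14, lay between -0.17 and 0.08. Psmd7 had 63.0, 62.9 and 64.8 CPM in LiK and 67.6, 61.5 and 71.7 CPM in LiKM (0.08). Psmd6 had 62.8, 61.0 and 65.6 CPM in LiK and 55.4, 56.7 and 56.4 CPM in LiKM (-0.17, interval -0.38 to 0.04, adjusted p = 0.315, edgeR). Psmd6 did not overlap between genotypes, and Psmd7 did. The chaperones that assemble the core and the base spread more widely. Psmg4, one of the scarcest, had 3.47, 4.23 and 4.60 CPM in LiK and 3.52, 6.44 and 4.19 CPM in LiKM (0.20), and Psmd9 had 41.3, 35.3 and 41.4 CPM and then 42.1, 31.7 and 25.5 CPM (-0.25). Both overlapped, with LiKM 2 highest for Psmg4 and LiKM 3 lowest for Psmd9.

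Psmf1, which encodes the inhibitor PI31, had 29.5, 33.8 and 34.4 CPM in LiK and 42.0, 41.1 and 33.6 CPM in LiKM. LiKM 3 lay among the LiK mice. The log2 fold change was 0.26 (interval -0.04 to 0.55, adjusted p = 0.291, edgeR). Psme4, which encodes the activator PA200, had 123, 130 and 129 CPM in LiK and 118, 117 and 111 CPM in LiKM (-0.14, interval -0.36 to 0.07, adjusted p = 0.416, edgeR). All 3 LiKM mice lay below the LiK mice for Psme4, by a few CPM. Psmc3ip had 97, 7 and 8 counts in LiK against 29, 35 and 18 in LiKM, so that LiK 1 alone set its direction: the log2 fold change was -0.47, and 1.89 without that mouse. Psma8 had at most 19 counts in any library (log2 fold change -0.32, SE 0.66).

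**Figure D4:**
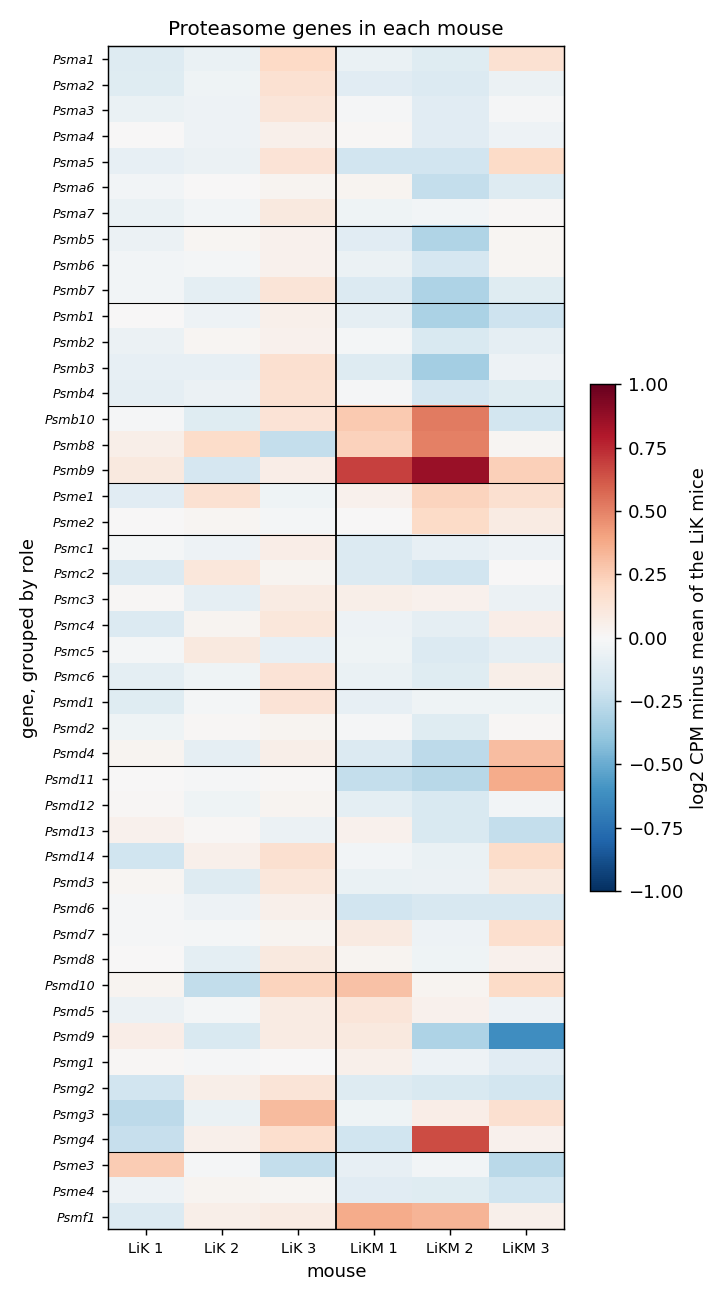
Log2 CPM of each Psm gene in each mouse minus its mean over the LiK mice (colour), with genes grouped by role and Psmc3ip and Psma8 left out. The strongest positive values are those of Psmb9 in LiKM 2 (0.86) and LiKM 1 (0.68), and the strongest negative value is that of Psmd9 in LiKM 3 (-0.62).

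The 6 mice differed in how the subunits stood. Relative to the LiK mean, the median log2 deviation of the 5 interferon-inducible genes was 0.00, 0.02 and -0.02 in LiK 1 to 3 and 0.23, 0.50 and 0.08 in LiKM 1 to 3. For the 41 others it was -0.04, -0.03 and 0.08 in LiK and -0.06, -0.12 and -0.03 in LiKM. LiKM 2 thus had the highest median of the 5 genes and the lowest median of the 41, and LiK 3 was the highest of all 6 mice in 25 of the 41 genes, against 16.4% of all genes.

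Genes that build, serve or control the proteasome were also without a call by edgeR. Of 18 assembly, receptor and shuttle genes tested, 0 were called, 2 had an unadjusted p under 0.05 and the median log2 fold change was -0.01. Pomp, the maturation factor of the core, had 92.8, 100 and 93.2 CPM in LiK and 90.5, 74.6 and 87.9 CPM in LiKM (-0.18, adjusted p = 0.391, no overlap). The most abundant of this list were the shuttle genes Rad23b (-0.11) and Ubqln1 (0.06). The factor NRF1 is known to raise proteasome genes when proteasome activity is short. Of 13 genes listed for NRF1 and NRF2, 0 were called, 1 had an unadjusted edgeR p under 0.05 and the median was -0.09. Nfe2l1, encoding NRF1, had -0.17, and Nfe2l2, encoding NRF2, had 51.9, 51.6 and 74.5 CPM in LiK and 65.7, 102 and 98.8 CPM in LiKM (0.58, interval 0.07 to 1.09, adjusted p = 0.171). The groups overlapped for both. The most abundant of that list, Vcp and Sel1l, each had -0.09. Of 10 ubiquitin and activation genes, 0 were called, 0 had an unadjusted p under 0.05 and the median was -0.08, with -0.10 for Uba1, which encodes the activating enzyme. The Wald test of DESeq2 and limma-voom also called 0 in each of these 3 lists.

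Some genes of an MHC class I list, which holds peptide-loading genes, heavy chains and a transactivator, were called. Of 15 tested, 3 rose and 0 fell, where 5.11% of all genes were called higher and 0.813% lower. The 3 were Tap1, Nlrc5, the transactivator of class I genes, and H2-Q7, a class I heavy chain. Tap1, the divergent neighbour of Psmb9, had 32.3, 28.9 and 35.5 CPM in LiK and 56.3, 72.3 and 58.1 CPM in LiKM, a 1.93-fold rise (adjusted p = 0.0197, edgeR). Nlrc5 rose 1.97-fold (adjusted p = 0.0273) and H2-Q7 rose 1.65-fold (adjusted p = 0.0256). Tap2 (log2 fold change 0.28), Tapbp (0.34) and B2m (0.21) were not called. Neither were the other heavy chain genes listed, H2-K1 (0.14), H2-D1 (0.40), H2-T23 (0.08) and H2-Q4 (0.81). The genotypes did not overlap for Tap2, Tapbp, H2-D1 and H2-Q4. Leaving out LiK 1, LiK 2 or LiKM 2 gave 0 calls in this list, leaving out LiK 3 gave 1, and a test against a 1.5-fold change gave 0. Over all genes, 31, 19 and 47 genes were called without LiK 1, LiK 2 and LiKM 2, against 802 with all mice. In the GENCODE M21 annotation Psmb9 and Tap1 overlap by 212 bases on opposite strands. The strand setting of the counting is not given in the sources used here, so reads from that overlap cannot be told apart, and 12 of the 48 Psm genes overlap another gene with a symbol in the table.

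Of 24 genes of the interferon gamma pathway, 11 rose and 0 fell, with a median log2 fold change of 0.96. That is 45.8% called, against 5.92% of all genes tested. The list was chosen with results of these data known. Igtp, an interferon-induced GTPase, had 26.5, 38.5 and 35.0 CPM in LiK and 92.7, 116 and 66.4 CPM in LiKM (1.46, adjusted p = 0.0221, edgeR). The highest mouse was LiKM 2 for Igtp, Gbp2, Tgtp1 and Cxcl10, as for the 5 interferon-inducible Psm genes, and LiKM 3 for Gbp9 and Irgm1. Others that rose were the guanylate-binding proteins Gbp9 (1.57) and Gbp2 (2.40), the GTPases Tgtp1 (2.91) and Irgm1 (0.69), and the chemokine gene Cxcl10 (2.33). Irf1, an early target, was not called (0.94, adjusted p = 0.0682). Ifng itself had at most 4 counts in a library and was not tested. Without LiK 1, LiK 2 or LiKM 2, 0 of the list were called, and 3, 7 and 9 without LiK 3, LiKM 1 and LiKM 3. Calls over all genes fell too, to 31, 19 and 47 and to 311, 376 and 626 in the same order. With all mice the count was 20 with the Wald test of DESeq2, 19 with limma-voom, 17 with library totals and 2 in a test against a 1.5-fold change. Over all genes these settings called 1591, 1323, 1102 and 127, against 802 in the main fit.

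Many markers of blood cells were also higher in LiKM mice. For the lists that follow, 5.11% of all genes tested were called higher and 0.813% lower. Of 12 leukocyte markers 10 rose and 0 fell, with summed levels of 117 to 155 CPM in LiK and 197 to 233 CPM in LiKM, and none at 0 in all LiK mice. Ptprc, encoding CD45, had 8.19, 7.75 and 8.86 CPM in LiK and 17.4, 21.1 and 22.8 CPM in LiKM (log2 fold change 1.30, adjusted p = 0.0107, edgeR), and Cd53 had 1.28. Of 13 T and NK cell markers tested 11 rose and 0 fell. The sums over all 15 listed were 4.10 to 7.51 CPM in LiK and 17.2 to 24.7 CPM in LiKM. Gzmk was at 0 in all 3 LiK mice, and Cd8a, the CD8 T cell co-receptor, had 4, 3 and 2 counts in LiK against 45, 62 and 52 in LiKM. Cd4, the co-receptor of helper T cells, had a negative fold change and was not called, at 4.96, 3.37 and 1.68 CPM in LiK and 1.93, 1.95 and 1.30 CPM in LiKM (-0.94, adjusted p = 0.234, edgeR). The NK cell markers Ncr1 and Klrb1c had at most 12 counts in a library and were not tested. Of 12 Kupffer cell and macrophage markers 6 rose, with sums of 311 to 398 CPM and 464 to 650 CPM. In each of these 3 lists the summed levels did not overlap between genotypes, and neither did those of the stellate cell markers given below. Dendritic and B cell markers gave 1 call of 11 (12.5 to 17.3 CPM and 17.1 to 21.9 CPM). Their part in the values of Psmb8, Psmb9, Psmb10, Psme1 and Psme2 was not tested. With LiK 1, 2, 3 and then LiKM 1, 2, 3 left out in turn, the calls were 0, 0, 6, 9, 0 and 8 for leukocytes, 1, 0, 5, 7, 1 and 10 for T and NK cells, and 0, 0, 1, 1, 0 and 6 for macrophages. Over all genes these fits called 31, 19, 311, 376, 47 and 626, against 802 with all mice. The dendritic and B cell call was lost in each of these 6 fits and with a replicate block. A test against a 1.5-fold change gave 2, 4, 0 and 0 calls in these 4 lists and 127 over all genes.

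Of other cell types, stellate cell markers gave 2 rises in 8 (209 to 315 CPM and 447 to 487 CPM), where 5.11% of all genes were called higher. The 8 endothelial markers (177 to 194 CPM and 177 to 267 CPM) and 6 tested cholangiocyte markers gave 0 calls by edgeR. They had 4 and 3 unadjusted edgeR p under 0.05, against 22.4% of all genes. Of the 4 endothelial genes, Pecam1 (0.46), Cdh5 (0.56) and Tek (0.60) were higher in LiKM and Lyve1 (-0.63) was lower. The 3 cholangiocyte genes, Krt19 (1.61), Krt7 (0.98) and Epcam (1.56), were higher. The cholangiocyte sums, over all 8 listed, were 82.2 to 254 CPM in LiK and 109 to 231 CPM in LiKM. DESeq2 called 0 and 2 of the endothelial and cholangiocyte lists, and limma-voom 1 and 0. The stellate count was 0 without LiK 1, LiK 2, LiKM 1 or LiKM 2, 1 without LiKM 3, 5 with DESeq2, 4 with library totals and 0 against a 1.5-fold change. The 9 hepatocyte markers, led by Alb (80600 to 102000 CPM in LiK and 91400 to 103000 CPM in LiKM), gave 0 calls by edgeR, DESeq2 and limma-voom. Their median log2 fold change was -0.12. The 2 unadjusted edgeR p under 0.05 were those of Hnf4a (-0.48) and Serpina1a (-0.57), both lower in LiKM. Apoa1 (-0.30), Cps1 (-0.26) and Apob (-0.12) were also negative, and Alb (0.10), Ttr (0.06), Fgb (0.19) and Ahsg (0.22) were positive. All 9 were present, as the tissue label says.

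**Figure D5:**
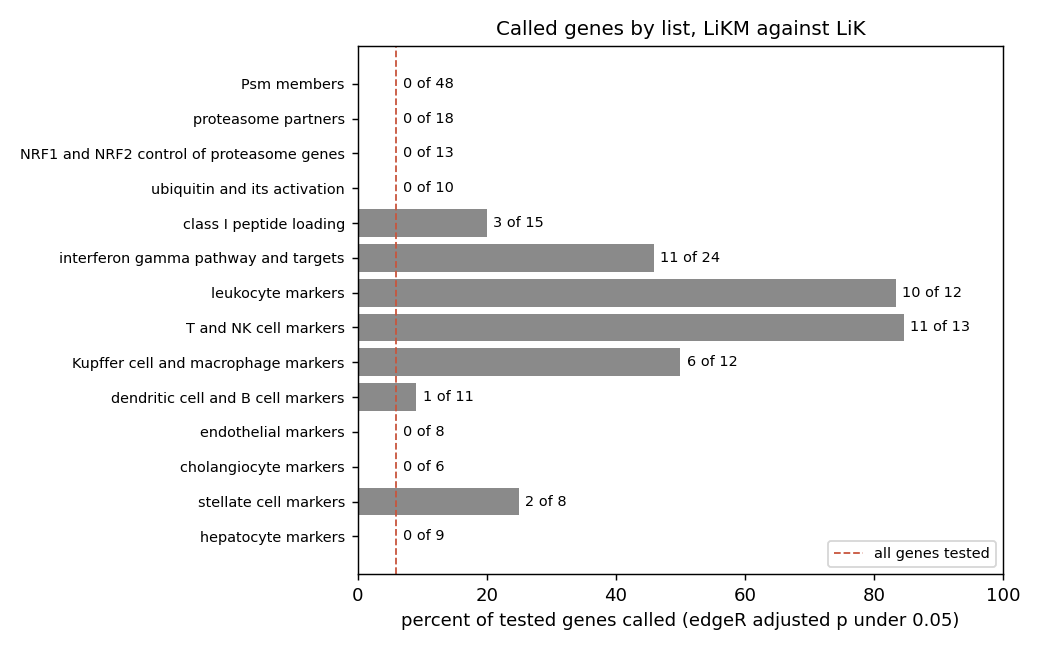
Percent of tested genes called by the edgeR quasi-likelihood test (adjusted p under 0.05) in each gene list, with the number called of the number tested beside each bar and a dashed line at the 5.92% of all genes. The Psm genes and the lists of their partners, their control and ubiquitin have 0 calls, and the lists of leukocyte and T and NK cell markers have 10 of 12 and 11 of 13.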

How the data were processed

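Liver RNA of 3 LiK and 3 LiKM mice was sequenced with a stranded messenger RNA kit, per the labels' protocols. The authors deposited raw read counts per gene symbol, made with featureCounts after FastQC 0.11.7, per the submitters' processing notes. Aligner, genome build, annotation and strand setting were not given in the sources used here. All 6 columns matched a sample by animal code, and 0 columns were left unused. The mice carry separate codes and were treated as separate animals.

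Counts were used as deposited. In R 4.3.3, edgeR 4.0.16 filtered genes (filterByExpr, minimum count 10, total 15), scaled them by TMM and compared genotypes with its quasi-likelihood test, genotype being the only term, with Benjamini-Hochberg adjustment over 13537 genes. SEs came from the coefficient and its F statistic, and 95% intervals from the t distribution on 7.27 degrees of freedom, gene by gene. Total counts of 19909993 to 24874343 set the depth, and the common biological coefficient of variation was 22.3%. The scripts were tested on simulated data. Alternatives used other scalings, filters and tests (DESeq2 1.42.0, limma 3.58.1 voom with sample weights), a replicate block, and each mouse left out.

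The genes and lists were chosen with earlier results of these data known. Named in full were the interferon-inducible genes and their counterparts, the highest and lowest fold change in each structural role, a few fixed genes, and from each list called members with the smallest adjusted p or, with none called, the 2 most abundant. Of these some are given by value only or left to the counts. Of 168 listed genes 166 had a symbol in the table, 4 through an older one in the RefSeq table. Paaf1 and Tf were not analysed here, and some named genes are not reported here. Psmd11, Cd4, Ncr1 and Klrb1c were named after their values were seen. So were H2-K1, H2-D1, H2-T23, H2-Q4, Pecam1, Cdh5, Tek, Lyve1, Krt19, Krt7, Epcam and the hepatocyte markers other than Alb and Ahsg. Exon lengths came from GENCODE M21 (GRCm38), and promoter windows from RefSeq (GRCm38.p6).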

Additional observations from a re-analysis of the deposited data

How the results depend on the processing

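The count of 0 Psm genes called lower held in all alternatives, and the count of 0 called higher held except with library totals, limma-voom and without LiKM 3, each of which called 1 gene, Psmb9, so that both Psm genes and the 5 interferon-inducible genes had 0 to 1 calls with a mouse left out. None of the 5 changed sign in any alternative. Their median was 0.39 with library totals and 0.07 to 0.34 with a mouse left out. The median of the others was 0.10 with library totals and -0.11 to -0.03 with a mouse left out. Over all genes the 802 calls became 1591 with the DESeq2 Wald test (1214 higher and 377 lower, 76.3% higher against 86.3%), 1323 with limma-voom, 127 in a test against a 1.5-fold change and 19 to 626 with a mouse left out. The 5 count ratios kept their sign, and their log2 differences with a mouse left out were 0.17 to 0.57 (Psmb8), 0.48 to 0.89 (Psmb9), 0.17 to 0.61 (Psmb10), 0.09 to 0.37 (Psme1) and 0.09 to 0.33 (Psme2). In all, 34 of 48 Psm genes changed sign somewhere, 26 of them with library totals. With library totals log2 fold changes turned to 0.10 for Psmd1, 0.02 for Psme4, 0.09 for Psmb6, 0.14 for Psmd11, 0.03 for Psme3, 0.05 for Psma6, 0.03 for Psmb5, 0.14 for Psmd4, 0.07 for Psmb2, 0.04 for Psmc2, 0.14 for Psma1, 0.04 for Rad23b, 0.07 for Vcp, 0.06 for Sel1l and 0.06 for Uba1. With upper quartile scaling they were 0.01 for Psmd11, 0.02 for Psmd4 and 0.01 for Psma1. DESeq2 size factors and its Wald test gave -0.01 for Psmc3, and limma-voom gave 0.99 for Psmc3ip and 0.00 for Ubqln1. With a mouse left out, signs changed for Psma1 (-0.12 to 0.09), Psma8 (-1.50 to 0.02), Psmc3 (-0.04 to 0.05), Psmc3ip (-0.98 to 1.89), Psmd1 (-0.12 to 0.01), Psmd11 (-0.28 to 0.07), Psmd4 (-0.22 to 0.08), Psmg4 (-0.11 to 0.35), Trp53 (-0.04 to 0.33, against 0.22) and Ubqln1 (-0.08 to 0.12). The cause was not tested. The labels number the mice 1 to 3 in each genotype. Deviations of same-numbered mice correlated at 0.27, 0.00 and 0.13, and LiK 2 correlated best with LiKM 3, so the numbers were not taken as pairs. With a replicate block 0 Psm genes and 835 of all genes were called, Psmb9 had an adjusted p of 0.1165 (edgeR quasi-likelihood test), and Psmc3ip turned to 0.27. With 3 mice per genotype, the interval of Psmb9 still spans 1.15-fold to 2.03-fold and Psma8 rests on at most 19 counts in a library.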
